A study of Mus musculus with 6 samples.

Results

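The naive pluripotency transcription factors examined here were Nanog, Esrrb, Tfcp2l1, Tbx3, Klf2, Klf5, Zfp42, Prdm14, Nr5a2 and Nr0b1. They were taken from the gene table by symbol, and each symbol matched a single row, giving 10 of 19330 genes. RNA was sequenced from 2 lines of induced pluripotent stem cells (iPSC) whose labels name palmitoylcarnitine, an acylcarnitine (PC iPSC 5 and 13), from 2 control iPSC lines (3 and 7), from 1 library of embryonic stem cells (ESC) and from 1 library of mouse embryonic fibroblasts (MEF). The iPSC and ESC shared a serum medium (M15) with leukemia inhibitory factor (LIF) and grew over primary MEF feeders that had received mitomycin C, while MEF grew in DMEM with serum. The ESC library bears the title B6 and the source name B6/blu, with no strain or line stated. The reprogramming method, the passage and the dose and timing of palmitoylcarnitine are not known from the sources used here, nor is it stated whether a library stands for a separate culture. The p-values below therefore measure only the spread between these libraries.

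Naive pluripotency is the state of the epiblast before implantation, and mouse ESC hold it in culture. It rests on transcription factors that bind the regulatory DNA of one another and are fed by LIF through STAT3, by WNT through relief from the repressor Tcf7l1, and restrained by FGF through the MEK and ERK kinases. When cells leave this state, most of these factors are switched off while Pou5f1 and Sox2 persist for longer, so the naive factors separate early from late pluripotent states more sharply than Pou5f1 does.

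Depth was even, at 26.51 to 27.99 M assigned reads per library, and each factor had at least 730 reads in every iPSC and ESC library. Reads covered 89.95% to 91.85% of the length of Esrrb and at least 94.01% of the length of the other factors in those libraries. Pou5f1 and Sox2, the shared core factors, stood at 401 to 531 and 153 to 179.7 RPKM in the iPSC lines. In ESC they stood at 602 and 213 RPKM. The iPSC and ESC libraries are called pluripotent below by their labels. RPKM is the read count scaled by gene length and by library total. The library labelled MEF had the highest summed level of 25 fibroblast markers (10112 RPKM), yet it also held 157.7 RPKM of Pou5f1, 88.2 of Sox2, 124 of Klf4 and 154 of Myc. In that library reads covered 79.38% of the length of Pou5f1 and 54.62% of Sox2. RNA of Pou5f1 and Sox2 was thus not confined to the libraries labelled iPSC and ESC. The source of these reads in the MEF library was not tested, so that library is called MEF-labelled below.

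The promoters of the 3 factors whose PC and control lines did not overlap (Nanog, Tfcp2l1 and Zfp42) and of Klf2 are shown first. Such non-overlap held for 31.4% of all tested genes, so 3 of 10 factors is near that background. Klf2 was the factor with the largest difference between iPSC and ESC. The binding letters of the network can so be read beside the levels. RefSeq promoter windows on GRCm38.p6, from 250 bases before the start to 50 bases after it, matched 7 of the 10 factors and 10 windows. Tbx3, Klf5 and Prdm14 had no entry. The first window of each of the 4 genes follows, 5′ to 3′ on the strand of the gene, with capitals on every match to the motifs named next.
Nanog, chr6:122707239-122707538, plus strand: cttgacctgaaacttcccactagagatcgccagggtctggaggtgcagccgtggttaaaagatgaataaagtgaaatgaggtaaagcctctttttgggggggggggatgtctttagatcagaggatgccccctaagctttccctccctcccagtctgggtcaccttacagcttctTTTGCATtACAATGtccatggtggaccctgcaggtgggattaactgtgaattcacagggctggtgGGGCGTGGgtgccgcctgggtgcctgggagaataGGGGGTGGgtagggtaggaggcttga
Zfp42, chr8:43306960-43307259, minus strand: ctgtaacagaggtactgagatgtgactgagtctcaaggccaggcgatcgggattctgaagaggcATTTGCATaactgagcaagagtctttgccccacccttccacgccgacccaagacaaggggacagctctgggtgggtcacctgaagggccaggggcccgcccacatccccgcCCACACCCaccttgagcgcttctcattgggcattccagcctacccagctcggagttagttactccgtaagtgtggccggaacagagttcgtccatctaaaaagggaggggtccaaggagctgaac
Tfcp2l1, chr1:118627695-118627994, plus strand: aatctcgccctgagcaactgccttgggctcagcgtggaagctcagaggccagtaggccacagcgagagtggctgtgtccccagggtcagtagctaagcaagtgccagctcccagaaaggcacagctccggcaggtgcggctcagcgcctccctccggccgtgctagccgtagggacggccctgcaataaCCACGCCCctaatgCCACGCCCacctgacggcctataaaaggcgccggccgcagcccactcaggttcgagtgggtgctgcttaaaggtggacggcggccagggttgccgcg
Klf2, chr8:72318812-72319111, plus strand: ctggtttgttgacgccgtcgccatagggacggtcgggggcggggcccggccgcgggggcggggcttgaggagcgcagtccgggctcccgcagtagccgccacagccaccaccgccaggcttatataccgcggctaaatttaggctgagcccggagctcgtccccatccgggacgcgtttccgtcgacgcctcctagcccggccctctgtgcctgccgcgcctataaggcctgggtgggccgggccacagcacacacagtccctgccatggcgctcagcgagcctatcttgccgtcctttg

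The motifs were searched on both strands. The octamer ATGCAAAT, bound by Pou5f1, is in 1.74% of 32851 promoter windows, and among the factors it was in that of Zfp42 alone, from -186 to -179 counted from the start. Its core ATGCAAA, chosen after the promoters were seen and contained in the octamer, is in 4.63% of windows and was found for Nanog (-75 to -69) and Zfp42. The SOX core CATTGT, in 12.57% of windows, was found for Nanog (-67 to -62), with a single base between it and the octamer core, and for Esrrb. The Krüppel-like motif GGGNGTGG, in 17.62% of windows, was found in 5 of the 10 windows, which belong to 4 of the 7 factors. There was a pair of matches each in Nanog and Tfcp2l1 and single matches in Zfp42 and in 1 of the Nr5a2 windows. The Nanog windows overlap and hold the same matches. The form ATGCNAAT, in 3.15% of windows, which includes the octamer, was found for Zfp42 alone. The nuclear receptor core AAGGTCA (4.72%), its longer form TCAAGGTCA (0.42%) and the STAT motif TTCCNGGAA (1.15%) were in 0 of the 10 windows. The Klf2 window held none of these letters. It was richer in CpG, with 32 against a median of 7 over all windows. A match is a description of letters and not a measured binding site.

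All 10 factors were expressed in the 4 iPSC lines and in ESC, from about 10.4 RPKM for Prdm14 to 473 RPKM for Nanog, and each passed the expression filter of the test. Their summed level was 1102 and 1035 RPKM in PC iPSC 5 and 13, 1099 and 1052 RPKM in control iPSC 3 and 7, 1133 RPKM in ESC and 12.5 RPKM in the MEF-labelled library. Over the 4 iPSC lines it averaged 1072 ± 33.7 RPKM (SD, n = 4), and the ESC sum lay just above the highest line. How the sum was divided among the factors differed more, as described below.

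**Figure D1:**
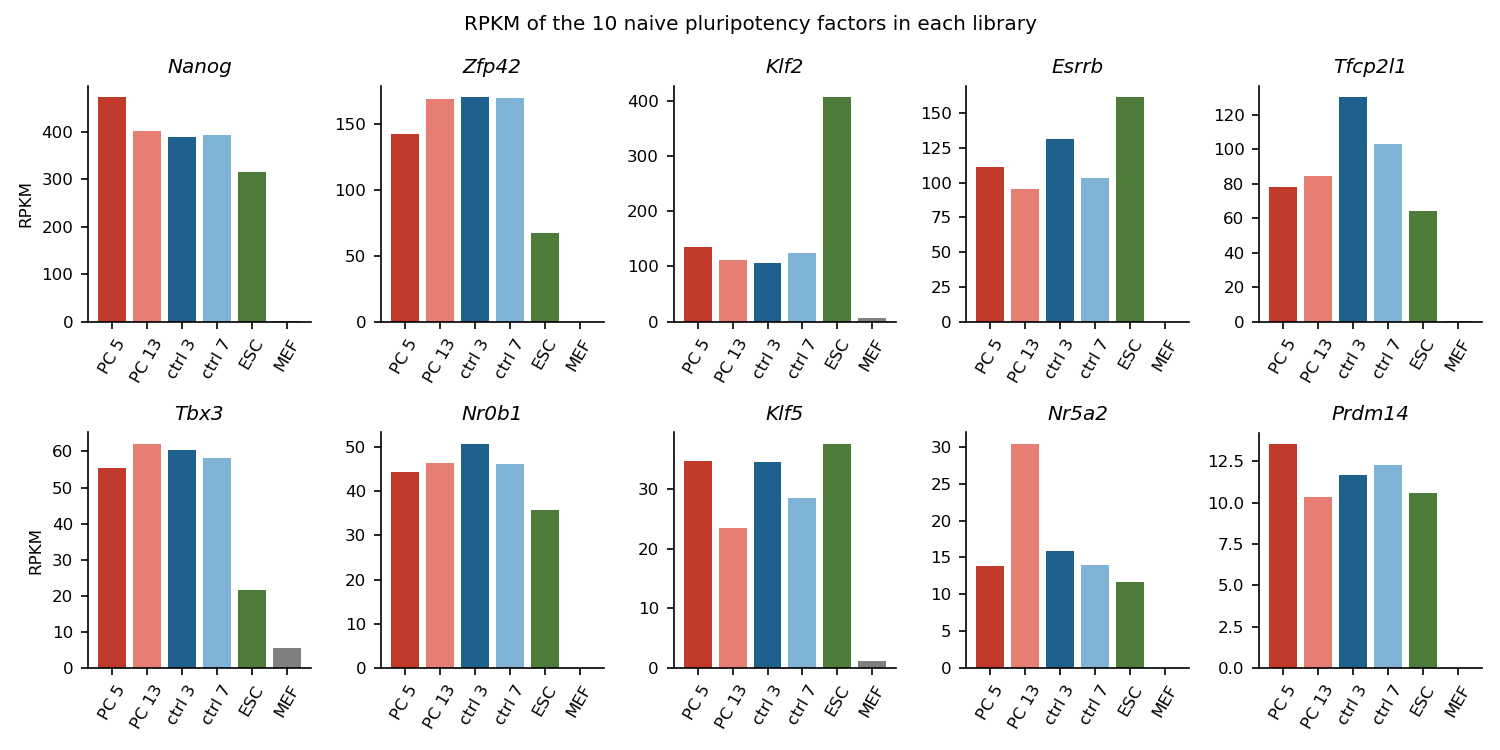
RPKM of each factor (y axis, from 0, with its own scale) in PC iPSC 5 and 13, control iPSC 3 and 7 (ctrl), ESC and the MEF-labelled library. Each bar is 1 library. Klf2 stands highest in ESC at 407 RPKM, Zfp42 and Tbx3 are higher in all 4 iPSC lines than in ESC, and Nr5a2 is highest in PC iPSC 13.

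Nanog, the homeodomain protein that in excess lets ESC self-renew without added LIF, lies on chromosome 6, 122707489 to 122714633 (GRCm38, RefSeq, as for the genes below, all of them protein-coding). It stood at 473 and 401 RPKM in PC iPSC 5 and 13, at 388 and 394 RPKM in control iPSC 3 and 7, at 316 RPKM in ESC and at 0.0482 RPKM, or 3 reads, in the MEF-labelled library. PC iPSC 5 was the highest and ESC the lowest of the pluripotent libraries. The mouse genome also holds processed copies of Nanog, and how reads that match them were assigned is not stated in the sources used here.

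The 3 nuclear receptors of the set differed in level and in constancy. Esrrb, the oestrogen-related receptor that Tcf7l1 represses (chromosome 12, 86361117 to 86521628), stood at 111 and 95.2 RPKM in the PC lines, at 131 and 103 RPKM in the control lines, at 162 RPKM in ESC and at 0 reads in the MEF-labelled library. ESC was above every iPSC line. Nr5a2, also called LRH-1, a receptor that binds the regulatory DNA of Pou5f1 (chromosome 1, 136842562 to 136960448), stood at 13.9 and 30.4 RPKM in PC iPSC 5 and 13, at 15.9 and 14.0 RPKM in the control lines, at 11.6 RPKM in ESC and at 0 reads in the MEF-labelled library. PC iPSC 13 alone was high, and the other PC line lay beside the controls. Nr0b1, also called DAX1, a receptor-like corepressor without the usual DNA-binding domain (chromosome X, 86191775 to 86195947), stood at 44.3 and 46.4 RPKM in the PC lines, at 50.7 and 46.1 RPKM in the control lines, at 35.7 RPKM in ESC and at 0 reads in the MEF-labelled library. The 4 lines were close together and all above ESC.

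Tfcp2l1 and Tbx3 are factors that relay LIF signals into the network. Tfcp2l1, a CP2-family protein and direct target of STAT3 (chromosome 1, 118627923 to 118685168), stood at 78.3 and 84.3 RPKM in the PC lines, at 130.2 and 103 RPKM in the control lines, at 64.2 RPKM in ESC and at 0.204 RPKM, or 53 reads, in the MEF-labelled library. Both PC lines were below both control lines and above ESC. Tbx3, a T-box protein (chromosome 5, 119670534 to 119684724), stood at 55.4 and 62.1 RPKM in the PC lines, at 60.5 and 58.1 RPKM in the control lines, at 21.6 RPKM in ESC and at 5.47 RPKM in the MEF-labelled library. Its iPSC lines overlapped fully and none came near ESC.

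Klf2 and Klf5 are Krüppel-like zinc finger proteins whose work in ESC overlaps with that of Klf4. Klf2 (chromosome 8, 72319062 to 72321654) stood at 135 and 112 RPKM in the PC lines, at 106 and 124 RPKM in the control lines, at 407 RPKM in ESC and at 5.61 RPKM in the MEF-labelled library. Klf5 (chromosome 14, 99298691 to 99313412) stood at 34.6 and 23.4 RPKM in the PC lines, at 34.4 and 28.4 RPKM in the control lines, at 37.6 RPKM in ESC and at 1.20 RPKM in the MEF-labelled library. For both genes the PC and control lines overlapped and ESC was the highest library, by a wide margin only for Klf2.

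Zfp42, also called Rex1, is a zinc finger gene related to Yy1 and a common reporter of the naive state (chromosome 8, 43295067 to 43307009). It stood at 143 and 169 RPKM in PC iPSC 5 and 13, at 171 and 169.7 RPKM in the control lines, at 67.2 RPKM in ESC and at 0 reads in the MEF-labelled library. The 3 lines other than PC iPSC 5 were almost level with one another, and all 4 lines lay above ESC. Prdm14, a PR-domain protein that holds down FGF signalling and DNA methyltransferase genes (chromosome 1, 13113428 to 13127163), was the least abundant of the set in all but the MEF-labelled library. It stood at 13.6 and 10.4 RPKM in the PC lines, at 11.7 and 12.3 RPKM in the control lines, at 10.6 RPKM in ESC and at 0 reads in the MEF-labelled library. ESC fell within the range of the iPSC lines for this gene alone.

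By mean level over the 4 iPSC lines the order was Nanog (413.8 ± 39.6 RPKM, SD, n = 4), Zfp42 (163 ± 13.6), Klf2 (119.5 ± 12.99), Esrrb (110.2 ± 15.5), Tfcp2l1 (98.9 ± 23.3), Tbx3 (59.0 ± 2.92), Nr0b1 (46.9 ± 2.72), Klf5 (30.2 ± 5.39), Nr5a2 (18.5 ± 7.98) and Prdm14 (12.0 ± 1.33). Among neighbours in this order the ranges of the lines overlapped for Klf2 and Esrrb, for Esrrb and Tfcp2l1, and for Klf5 and Nr5a2. The other neighbours had separate ranges. In ESC the order opened with Klf2 and Nanog and went on with Esrrb, Zfp42, Tfcp2l1, Klf5, Nr0b1, Tbx3, Nr5a2 and Prdm14.

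Between PC and control iPSC, the RNA of the naive factors was not separated by the test. Tfcp2l1 had the lowest unadjusted p, with less RNA in the PC lines, and Nr5a2 had the largest point difference, with more RNA in a single PC line. edgeR called 0 of the 10 factors and 0 of 16435 genes (0.0%) at an adjusted p under 0.05, with 385 genes at an unadjusted p under 0.05, and DESeq2 called 0 genes with 249 at an unadjusted p under 0.05. The groups did not overlap in RPKM for 3 of the 10 factors, against 31.4% of all tested genes, a share near that background. By counts over all genes the closest pair of libraries was PC iPSC 13 and control iPSC 7, of opposite groups, with a chi-square per gene of 8.15, against 35.8 between the 2 PC lines and 27.7 between the 2 control lines.

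Tfcp2l1 averaged 81.3 ± 4.30 RPKM in PC lines and 116 ± 19.4 RPKM in control lines (SD, n = 2 each). The log2 difference was -0.54 (standard error, SE, 0.17, 95% interval -0.94 to -0.14). Its unadjusted p was 0.015 in edgeR's quasi-likelihood test, and its adjusted p was 0.963. Control iPSC 3 gave the highest value, and over the fits that left out a single line the difference ran from -0.69 to -0.36. Nanog averaged 437 ± 50.4 RPKM in PC lines and 391 ± 4.06 RPKM in control lines, a log2 difference of 0.14 (SE 0.14, 95% interval -0.20 to 0.48). Zfp42 averaged 156 ± 18.8 RPKM in PC lines and 170.2 ± 0.669 RPKM in control lines, a log2 difference of -0.15 (SE 0.15, 95% interval -0.50 to 0.20). For both, the gap between the PC lines was larger than the gap between PC iPSC 13 and the controls.

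Nr5a2 averaged 22.1 ± 11.7 RPKM in PC lines and 14.9 ± 1.36 RPKM in control lines, a log2 difference of 0.56 (SE 0.35, 95% interval -0.27 to 1.38). The difference was -0.16 without PC iPSC 13 and 1.04 without PC iPSC 5, so this line decides its sign. The remaining log2 differences were -0.21 for Esrrb, -0.14 for Klf5, -0.11 for Nr0b1, -0.033 for Tbx3, -0.026 for Prdm14 and 0.077 for Klf2. The edgeR adjusted p lay between 0.963 and 0.995 for all 10 factors. No 95% interval reached past 1.38 in size, that of Nr5a2. Only the interval of Tfcp2l1 excluded 0, and the intervals are not adjusted for the number of genes tested. Small differences were not detectable with 2 lines a group. Larger ones outside the set, such as that of Zic2 (1.40, SE 0.42), were not called either. Over the 10 factors the median log2 difference was -0.074, against 0.0 over all tested genes, and the median absolute difference was 0.14, against 0.17.

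**Figure D2:**
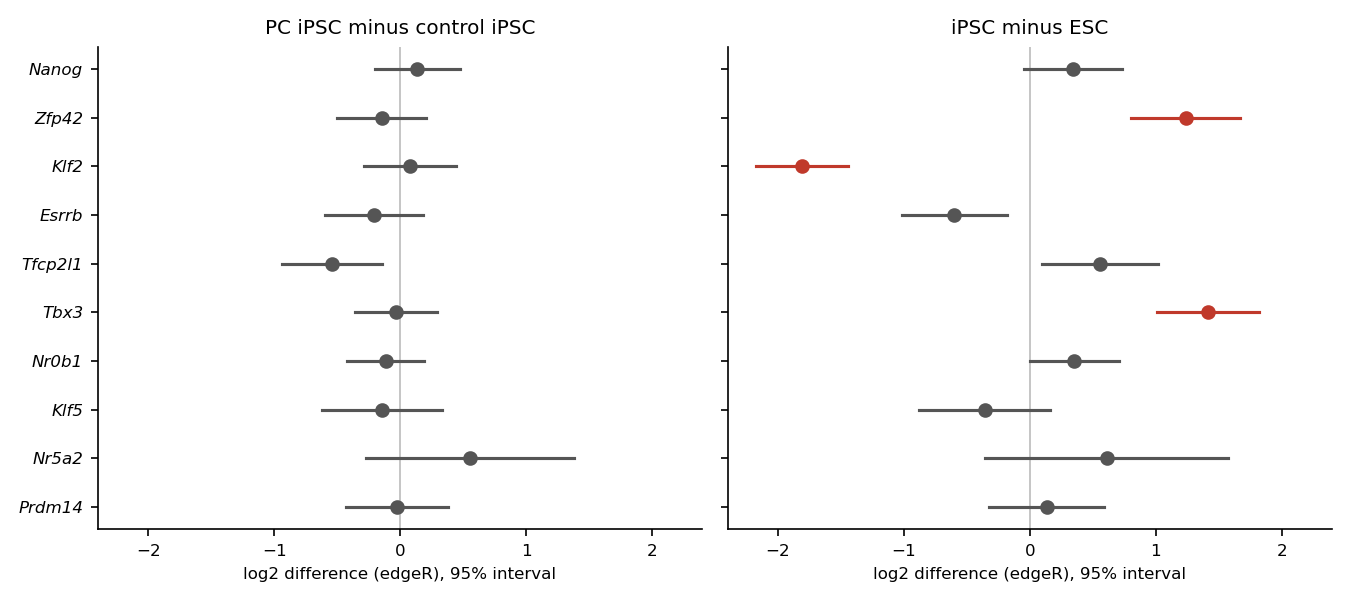
Log2 differences from edgeR (points) with 95% intervals (lines) for each factor, PC iPSC minus control iPSC on the left and iPSC minus ESC on the right. Red marks an adjusted p under 0.05. On the left 0 factors are red, and on the right Klf2 at -1.81, Zfp42 at 1.24 and Tbx3 at 1.41 are red.

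Against ESC, the iPSC lines had less Klf2 RNA and more Tbx3 and Zfp42 RNA. Klf2 fell to 119.5 ± 12.99 RPKM in iPSC (SD, n = 4), against 407 RPKM in ESC, a 3.51-fold difference (log2 -1.81, SE 0.15, 95% interval -2.18 to -1.45, edgeR adjusted p = 0.00611). Tbx3 rose to 59.0 ± 2.92 RPKM in iPSC, against 21.6 RPKM in ESC (log2 1.41, SE 0.17, 95% interval 1.01 to 1.82, edgeR adjusted p = 0.0104). Zfp42 rose to 163 ± 13.6 RPKM in iPSC, against 67.2 RPKM in ESC (log2 1.24, SE 0.18, 95% interval 0.81 to 1.67, edgeR adjusted p = 0.0165). Thus edgeR called 3 of the 10 factors, 2 higher and 1 lower in iPSC, beside 10.4% of all tested genes (4.71% higher and 5.71% lower).

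The other 7 factors did not pass the test against ESC. Esrrb differed by -0.60 (SE 0.18, edgeR adjusted p = 0.0763), and without control iPSC 3, the line with the most Esrrb, it was called at -0.71 (edgeR adjusted p = 0.0257). Tfcp2l1 differed by 0.56 (SE 0.19, edgeR adjusted p = 0.112) and Nanog by 0.34 (SE 0.16, edgeR adjusted p = 0.209). Nr0b1 differed by 0.35 (SE 0.15, edgeR adjusted p = 0.165), while the 623 tested genes of its chromosome, X, had a median of 0.296, against 0.028 over all tested genes. The part of the X-wide difference in the Nr0b1 value was not tested. Klf5 differed by -0.36, Prdm14 by 0.13 and Nr5a2 by 0.61. The Nr5a2 difference fell to 0.25 without PC iPSC 13, the line at 30.4 RPKM, and was not called (edgeR adjusted p = 0.306). It was 0.54 without control iPSC 3 (edgeR adjusted p = 0.192), and it was called at 0.83 without PC iPSC 5 (edgeR adjusted p = 0.0276) and at 0.65 without control iPSC 7 (edgeR adjusted p = 0.042), fits that keep PC iPSC 13.

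Of the 10 factors, 6 were higher in all 4 lines than in ESC (Nanog, Nr5a2, Nr0b1, Tfcp2l1, Tbx3 and Zfp42), 3 were lower in all 4 (Esrrb, Klf2 and Klf5), and Prdm14 was on neither side. Over all tested genes, 66.5% had the 4 lines on 1 side of ESC. The median log2 difference of the factors was 0.35, against 0.028 over all tested genes, and their median absolute difference was 0.58, against 0.41. A single ESC library is assumed to vary like the iPSC lines, so a trait of that library cannot be told apart from a trait of ESC. The calls of Klf2, Tbx3 and Zfp42 held without each iPSC line in turn and without chromosome 11, and were lost with limma on log2 RPKM values, as given in the closing section.

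**Figure D3:**
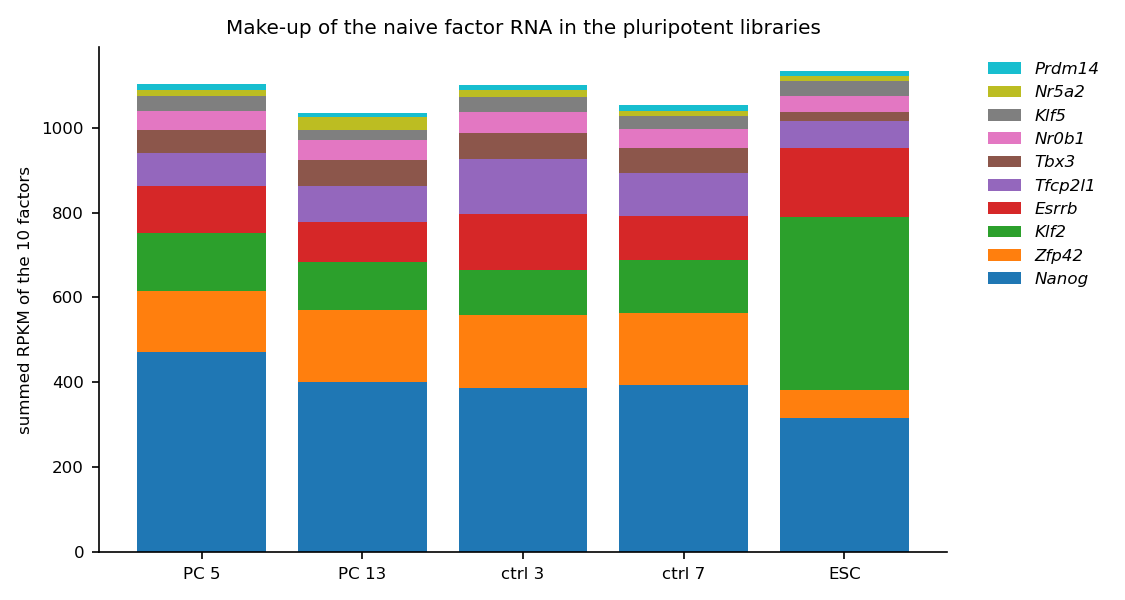
Summed RPKM of the 10 factors (y axis) in each pluripotent library, PC iPSC 5 and 13, control iPSC 3 and 7 (ctrl) and ESC, split by factor. The sums are close, from 1035 to 1133 RPKM, while Klf2 makes up 35.9% of the sum in ESC and at most 12.3% in an iPSC line.

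Nanog held 35.3% to 42.9% of the summed factor RNA in the iPSC lines, against 27.9% in ESC. Klf2 held 9.7% to 12.3% in the iPSC lines, against 35.9% in ESC, and Zfp42 held 12.9% to 16.3%, against 5.9%. Klf5 held 2.8% of the sum in the iPSC mean, against 3.3% in ESC. Klf4, a reprogramming factor and partner of Klf2 and Klf5, stood at 70.9 and 91.5 RPKM in the PC lines, at 96.5 and 95.4 RPKM in the control lines and at 21.4 RPKM in ESC, a log2 difference of 2.00 between iPSC and ESC (SE 0.22, edgeR adjusted p = 0.00882). Klf2 RNA was 1.10 to 1.91 times that of Klf4 in the iPSC lines, against 19.0 times in ESC, per length. Klf2, Klf4 and Klf5 together came to 238.3 ± 8.81 RPKM in iPSC (SD, n = 4) and 466 RPKM in ESC. Reads per gene cannot tell an introduced Klf4, Pou5f1 or Sox2 from the cells' own, and the method of reprogramming is not stated.

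RNA of other cell types moved with the comparison of iPSC and ESC. The summed level of the 25 fibroblast markers was 3395 and 2879 RPKM in the PC lines and 1679 and 3239 RPKM in the control lines. It was 1297 RPKM in ESC, and no marker was at 0. Their median was 25.9 and 25.8 RPKM in the PC lines and 16.5 and 26.7 RPKM in the control lines. It was 8.78 RPKM in ESC and 188 RPKM in the MEF-labelled library. By edgeR 11 of the 25 rose in iPSC against ESC, beside the 4.71% of all tested genes. Against the MEF-labelled library 22 were lower in iPSC and 2 higher, Acta2 (12.8-fold) and Tagln (9.44-fold). In that comparison 11185 of all 16435 tested genes were called, with 36.5% of all tested genes higher in iPSC. Klf2 and Tbx3 stood at 5.61 and 5.47 RPKM in the MEF-labelled library and Zfp42 had 0 reads there, so each was lower in it than in every iPSC line and in ESC. Of 10 markers of 2-cell-like cells, 9 rose in iPSC against ESC. The 10 summed to 117 and 167 RPKM in the PC lines, 120.4 and 164 RPKM in the control lines and 52.4 RPKM in ESC. In the MEF-labelled library 9 were at 0, and its sum of 63.6 RPKM was Eif1a alone. Eif1a was among the 9 that rose, by 0.74 on the log2 scale (SE 0.18). The median of the 10 was 4.27 and 10.4 RPKM in the PC lines, 4.58 and 10.9 RPKM in the control lines and 0.652 RPKM in ESC. Several of the 10 markers are members of families of near-identical copies, so their counts are uncertain. Markers of trophoblast summed to 120.2 and 61.2 RPKM in the PC lines, 71.7 and 60.4 RPKM in the control lines and 164 RPKM in ESC. By edgeR 1 of 10 tested genes was higher in iPSC (Tead4) and 2 were lower (Fgfr2 and Tfap2c). Over all tested genes 4.71% were higher and 5.71% lower. Tfap2c stood at 12.3 ± 4.83 RPKM in iPSC and 60.7 RPKM in ESC. Those of primitive endoderm summed to 120.3 and 98.8 RPKM in the PC lines, 85.5 and 106 RPKM in the control lines and 81.3 RPKM in ESC. Their sum was highest in the MEF-labelled library, at 377 RPKM, and Pdgfra is also among the fibroblast markers. Of 10 tested genes, 1 was higher in iPSC than in ESC and 0 were lower, beside the same shares of all tested genes. It was Dab2, at 4.53 ± 1.34 RPKM in iPSC, 1.43 RPKM in ESC and 106.4 RPKM in the MEF-labelled library. The part of the fibroblast, 2-cell, trophoblast and endoderm markers in the factors' levels was not tested. In such bulk libraries fewer cells of a type and less RNA per cell cannot be told apart.

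Against the MEF-labelled library, all 10 factors were higher in iPSC, where edgeR called 36.5% of tested genes higher. Esrrb, Zfp42, Prdm14, Nr5a2 and Nr0b1 had 0 reads in the MEF-labelled library. Set against a floor of 3 reads, which a count of 0 allows, the iPSC mean was at least 4434-fold higher for Esrrb, 2760-fold for Zfp42, 793-fold for Nr0b1, 643-fold for Nr5a2 and 289.7-fold for Prdm14. For Nanog, with 3 reads, the ratio was 8590 (95% counting interval 2939 to 41655), and for Tfcp2l1 it was 485 (371 to 647). The intervals cover counting error only.

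The remaining 3 factors had the smallest ratios. Klf5, with 58 reads in the MEF-labelled library, was 25.2-fold higher in iPSC, Klf2, with 285 reads, 21.3-fold and Tbx3, with 732 reads, 10.8-fold. Reads covered 98.29% of the length of Tbx3, 82.76% of Klf2 and 99.07% of Klf5 in the MEF-labelled library, against 20.24% of Nanog. ESC, 1 library against 1 and so without a test, was past 2-fold above the MEF-labelled library for all 10 factors, beside 32.2% of tested genes. Tbx3 had the smallest ratio there, 3.94 (95% counting interval 3.64 to 4.28), and Klf2 was 72.6-fold higher in ESC (64.6 to 81.9). Pou5f1 and Sox2, at 157.7 and 88.2 RPKM in the MEF-labelled library, differed by 1.64 (SE 0.22) and 0.90 (SE 0.17) on the log2 scale between iPSC and it, and Klf4 by -0.46 (SE 0.18, edgeR adjusted p = 0.0596).

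**Figure D4:**
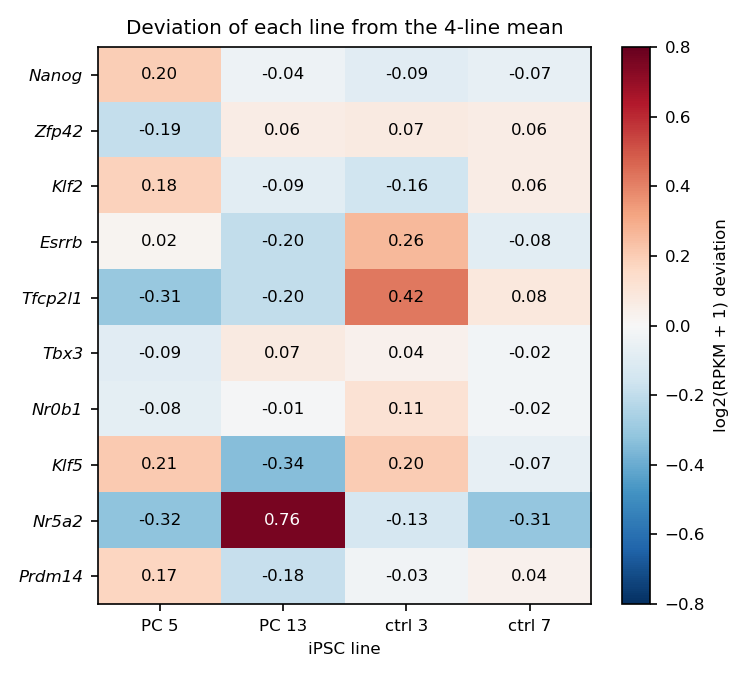
Deviation of each iPSC line from the mean of the 4 lines, on the log2(RPKM + 1) scale, with factors down the page and PC iPSC 5 and 13 and control iPSC 3 and 7 (ctrl) across. Red is above and blue below the mean. Nr5a2 in PC iPSC 13 (0.76) and Tfcp2l1 in control iPSC 3 (0.42) deviate most.

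Among the 4 iPSC lines the factors differed in how constant they were. The SD of log2(RPKM + 1) over the lines was 0.51 for Nr5a2 and 0.33 for Tfcp2l1, which lay at percentiles 98.2 and 93.2 of genes with a mean level within 2-fold of theirs, and 0.07 for Tbx3 and 0.08 for Nr0b1, at percentiles 20.6 and 26.3. Klf5 (percentile 88.7) and Esrrb (75.7) also varied more than most genes of their level, while Klf2 (64.6), Prdm14 (59.3), Zfp42 (51.8) and Nanog were near the middle. No line was high or low for all factors. PC iPSC 5 had the most Nanog, Klf2, Klf5 and Prdm14 and the least Zfp42, Tfcp2l1, Tbx3, Nr5a2 and Nr0b1. PC iPSC 13 had the most Nr5a2 and Tbx3 and the least Klf5, Esrrb and Prdm14. Control iPSC 3, the line with the lowest sum of fibroblast markers, had the most Tfcp2l1, Esrrb, Zfp42 and Nr0b1 and the least Nanog and Klf2. The part of the fibroblast markers in these levels was not tested.

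The genes whose profile over the 6 libraries was most like that of each factor were found among 13942 genes by the root mean square difference of centred log2(RPKM + 1) values, where 0 means the same profile. Nr0b1 was nearest to Gtsf1l (0.08), Tbx3 to Hormad2 (0.09), Esrrb to Alpl (0.10), the alkaline phosphatase used to stain pluripotent colonies, and Klf5 to Atp1b1 (0.11), a sodium pump subunit. Prdm14 was nearest to Eme1 (0.13), Tfcp2l1 to Ooep (0.17), an oocyte and embryo protein, Klf2 to Cldn6 (0.23), a tight junction protein, and Nr5a2 to Dsg2 (0.26), a desmosome cadherin. Zfp42 was nearest to 2210409E12Rik (0.29) and Nanog to Rhox5 (0.39), a homeobox gene of the X-linked Rhox cluster. Within the set, Klf5 and Prdm14 were the closest pair (0.23) and Nanog and Tbx3 the farthest (2.13). These distances rest largely on the step to the MEF-labelled library and are a description of 6 libraries.

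Relatives of the factors differed in pattern. Of 24 tested, 5 were called higher and 9 lower in iPSC than in the MEF-labelled library by edgeR, and 10 did not pass the test. In the same comparison 11185 of all 16435 tested genes were called in either direction, and 36.5% of all tested genes were called higher. Esrra, relative of Esrrb, stood at 14.7 and 14.8 RPKM in the PC lines, 11.7 and 14.1 RPKM in the control lines, 15.5 RPKM in ESC and 14.4 RPKM in the MEF-labelled library. Esrrg, of the same family, had at most 1 read in each pluripotent library and 536 reads (3.56 RPKM) in the MEF-labelled library. Tfcp2 and Ubp1, relatives of Tfcp2l1, stood at 5.84 to 7.53 and 24.0 to 31.0 RPKM over the 6 libraries, and Yy1, relative of Zfp42, at 36.6 to 48.0 RPKM. Tbx2, relative of Tbx3, reached at most 0.506 RPKM in the pluripotent libraries and 2.31 RPKM in the MEF-labelled library, and Nr5a1 and Nr0b2 stayed at or under 0.223 RPKM in all 6. Against ESC, 2 of the 24 rose in iPSC (Klf4, and Klf8 by 0.78) and 2 fell (Prdm1 by 2.58 on the log2 scale and Klf11 by 0.62 on the log2 scale), beside 4.71% and 5.71% of all tested genes, with a median of -0.14.

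Most genes that feed or oppose the naive factors did not pass the test between iPSC and ESC. The same held for all tested genes, of which 10.4% were called. Of 36 signal genes, 3 rose, 6 fell and 27 did not pass, beside 4.71% higher and 5.71% lower over all tested genes. Their median log2 difference was -0.036, against 0.028 over all tested genes. Fgfr2, an FGF receptor, stood at 0.789 ± 0.181 RPKM in iPSC (SD, n = 4) and 5.72 RPKM in ESC (log2 -2.90, SE 0.24). Bmp4 stood at 3.61 ± 0.243 and 0.646 RPKM (2.43, SE 0.27) and its target Id3 at 42.3 ± 4.65 and 16.01 RPKM (1.36, SE 0.18). Lif stood at 2.74 ± 0.753 and 6.37 RPKM (-1.27, SE 0.28). Id1, of the same family as Id3, did not pass the test (0.369, SE 0.205, edgeR adjusted p = 0.273). The MEF-labelled library held 22.1 RPKM of Bmp4, 169 of Id3 and 11.3 of Fgfr2, each above iPSC and ESC, and 0.868 of Lif. The part of fibroblast RNA in these values was not tested. Of the 7 genes of the LIF arm in that list, 4 fell and none rose, a grouping made after their values were seen. They were Lif, its receptor Lifr (-0.99, SE 0.18), the transducer Stat3 (-0.95, SE 0.23) and the STAT3 target and feedback inhibitor Socs3 (-1.07, SE 0.21), while Il6st (-0.67), Jak1 (0.00) and Jak2 (-0.12) did not pass the test. Lif, Stat3 and Socs3 lie on chromosome 11, whose 1352 tested genes had a median of -0.29 in iPSC against ESC, against 0.05 over the genes of the other chromosomes. The part of that shift in their values was not tested, and none of the 10 factors lies on chromosome 11.

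Of 20 genes known to act in the exit from the naive state, none rose, 5 fell and 15 did not pass the test, beside 4.71% higher and 5.71% lower over all tested genes, with a median of 0.10. Flcn (-1.02, SE 0.16), Fnip1 (-1.22, SE 0.21) and Tfe3 (-0.83, SE 0.15) belong to the folliculin pathway, in which folliculin keeps Tfe3, an activator of Esrrb, out of the nucleus. Flcn stood at 13.6 ± 1.77 RPKM in iPSC and 26.8 RPKM in ESC, and Fnip1 at 10.8 ± 2.15 and 24.4 RPKM, and both lie on chromosome 11. Mta1, of the NuRD repressor complex, differed by -1.02 (SE 0.17). The fifth, named outside the rule and after its value was seen, was Rest (-0.68, SE 0.15).

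Of 16 tested formative and primed genes, 1 rose, 3 fell and 12 did not pass the test, beside 4.71% higher and 5.71% lower over all tested genes, with a median of -0.20. Pou3f1, or Oct6, stood at 2.87 ± 0.436 RPKM in iPSC and 6.17 RPKM in ESC (log2 -1.15, SE 0.23). Zic5 differed by -1.68 (SE 0.40), Sox4 by -0.89 (SE 0.17) and Cdh2, or N-cadherin, by 1.08 (SE 0.21). Cdh2 stood at 5.63 ± 0.695 RPKM in iPSC, 2.59 RPKM in ESC and 19.6 RPKM in the MEF-labelled library. That library also held 47.8 RPKM of Sox4, but only 0.0237 of Pou3f1 and 0.0900 of Zic5. The part of fibroblast RNA in these values was not tested. Of 30 other pluripotency genes, 7 rose, 4 fell and 19 did not pass the test, against the same background, with a median of 0.03. Beside Klf4 these included Tdh, a threonine dehydrogenase of mouse ESC, at 139 ± 29.4 RPKM in iPSC and 34.2 RPKM in ESC (1.97, SE 0.23), Tcl1, an Akt cofactor (1.31, SE 0.32), and Mycn (-1.72, SE 0.42). The lists overlap in a few genes, such as Stat3 and Klf4. edgeR's adjusted p for the genes called here ran up to 0.0491. Between PC and control iPSC, 0 genes of each of these lists were called.

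**Figure D5:**
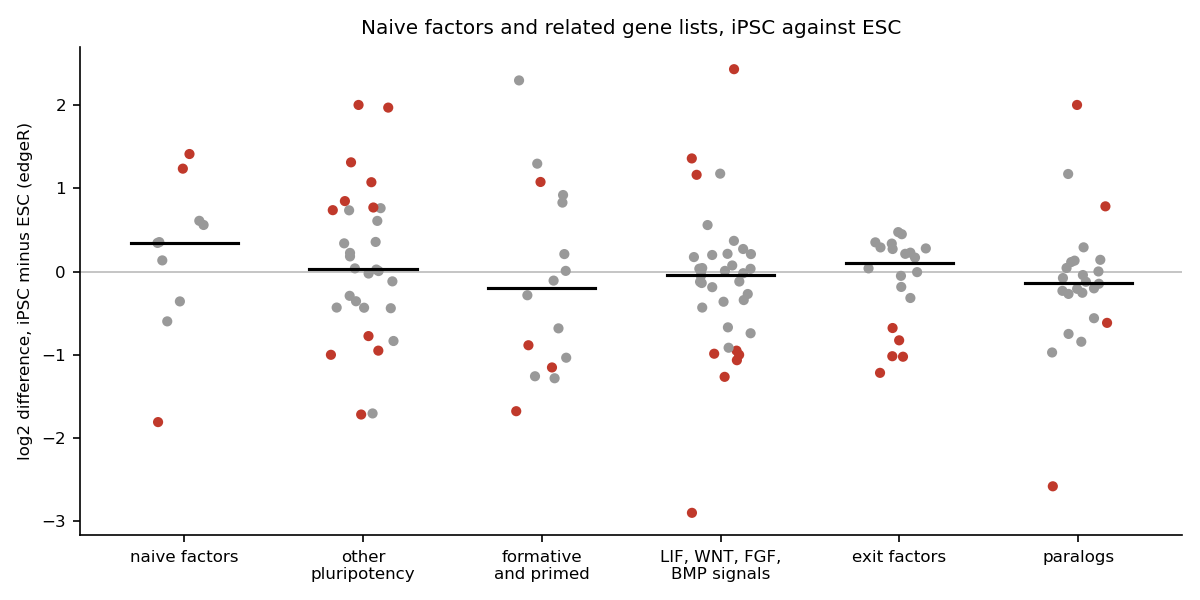
Log2 difference between iPSC and ESC (y axis, iPSC minus ESC, edgeR) for each tested gene of the naive factors and of 5 related lists, with the median of each list as a black line. Red points have an adjusted p under 0.05. The naive factors have a median of 0.35, and the medians of the other lists run from -0.20 to 0.10.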

How the data were processed

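RNA was sequenced from 2 PC iPSC, 2 control iPSC, 1 ESC and 1 MEF library. Per the file headers, the authors deposited uniquely assigned read counts per gene with library totals, RPKM values scaled by gene length and total, and a coverage score that gives the share of a gene's length with reads. The submitters' processing notes list CASAVA 1.8.2 and build mm10. Aligner, annotation, use of strand and the counting of mate pairs are not stated in the sources. Counts of the single-library tables were the same, with 0 differing, and 0 per-sample columns were left unused.

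Testing used edgeR 4.0.16 under R 4.3.3 on the counts (quasi-likelihood test, TMM, default filter leaving 16435 genes, Benjamini-Hochberg over all of them, threshold 0.05). A single fit held 4 group means, with 2 residual and 4.75 prior degrees of freedom and a biological coefficient of variation of 0.180. Scripts were tested on simulated data. The lowest chi-square per gene between libraries was 8.15 (PC iPSC 13 with control iPSC 7), so none was counted as a repeat. Alternatives were RLE size factors, DESeq2 1.42.0, no filter, limma 3.58.1 on log2(RPKM + 1) and log2(RPKM + 0.1), a fit without chromosome 11, the 4 iPSC libraries alone and each iPSC line left out.

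The factors and gene lists were chosen with earlier results of these data known. The text names all 10 factors, the nearest profile of each among genes of at least 1 RPKM in some library, close relatives, Pou5f1, Sox2 and Klf4, and from each list up to 4 called genes of largest difference between iPSC and ESC. Floors are 3 reads per library, and 95% intervals on ratios to MEF cover counting error only.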

Additional observations from a re-analysis of the deposited data

Results flagged for a closer look

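In 3 factors a single iPSC line lay far from the other 3, by a gap large against the range of all 4. Nanog was highest in PC iPSC 5 at 473 RPKM, with the other lines between 388 and 401 RPKM, the gap making up 0.84 of the range. Zfp42 was lowest in the same line at 143 RPKM, with the other lines between 169 and 171 RPKM, a gap of 0.946 of the range. Nr5a2 was highest in PC iPSC 13 at 30.4 RPKM, with the other lines between 13.9 and 15.9 RPKM, a gap of 0.877 of the range. The nominal rate of this rule is about 5% for groups of 4 independent values, and 10 factors were examined. The share of all tested genes marked in this way is not given here, so no excess among the factors can be read.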

How the results depend on the processing

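Between PC and control iPSC, 0 factors were called under every alternative run. The sign of 6 factors turned in some fit that left out a line, none of them called. Over these fits the log2 difference ran from -0.15 to 0.078 for Tbx3, -0.031 to 0.20 for Klf2, -0.31 to 0.001 for Zfp42, -0.42 to 0.09 for Klf5, -0.20 to 0.13 for Prdm14 and -0.16 to 1.04 for Nr5a2. Without control iPSC 7, edgeR called 309 genes over all, none a factor. Between iPSC and ESC the count of called factors was 5 with DESeq2 (which added Esrrb, adjusted p = 0.0259, and Tfcp2l1, adjusted p = 0.0356), 0 with limma on log2(RPKM + 1), 0 with limma on log2(RPKM + 0.1) and 3 to 4 without single lines. With limma the differences of Klf2, Tbx3 and Zfp42 kept their size (-1.77, 1.41 and 1.26 on log2(RPKM + 1)) with adjusted p = 0.0593 and adjusted p = 0.075 for the smaller pseudocount, and limma called 11 and 3 genes over all, against 1713 by edgeR. Across the alternatives run, adjusted p lay from 2.37e-18 to 0.075 for Klf2, 4.03e-12 to 0.075 for Tbx3, 1.99e-08 to 0.075 for Zfp42, 0.0257 to 0.148 for Esrrb, 0.0356 to 0.239 for Tfcp2l1 and 0.0276 to 0.454 for Nr5a2. DESeq2 called 2384 genes between iPSC and ESC, 1315 of them higher, against 774 of 1713 by edgeR. Against the MEF-labelled library all 10 factors were called under every alternative. No paired analysis was possible because the PC lines (5 and 13) and control lines (3 and 7) share no replicate numbers. With 2 lines a group and single ESC and MEF libraries, small differences were not detectable, and 3 reads set the limit for factors at 0. In the main fit no gene was called between PC and control iPSC, whatever the size of its difference.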
